A study of Rattus norvegicus with 24 samples.

Results

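Endothelial cells line the capillaries of the brain and form the blood-brain barrier. Tight junctions seal the clefts between neighbouring cells, fenestrae are absent, vesicle traffic is held low, and carriers in the cell membrane supply the tissue with glucose and amino acids while efflux pumps return foreign compounds to the blood. The genes described here were chosen by name and number 10, namely the junction genes Cldn5, Cdh5, Ocln and Tjp1, the surface and receptor genes Pecam1 and Flt1, and the transporter genes Slc2a1, Slco1a4, Mfsd2a and Abcb1a. Of these, 8 had a row under their own name among the 32883 reference genes of each gene table, and 7 passed the filter for low values and entered the tests with 15644 genes in all. Pecam1 and Abcb1a were not found by name and are not analysed here. Cldn5 was found but did not pass the filter.

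RNA was taken from the frontal cortex of adult male Sprague-Dawley rats and was sequenced as stranded mRNA libraries. Rats of the Low and High groups had inhaled a tungsten aerosol, and samples were taken 24 h after exposure. The groups were Control (0 mg/m3), Low (5 mg/m3) and High (80 mg/m3), each with 8 libraries numbered from 49 to 72. The study describes the samples as tissue, while 1 of the labels speaks of cell lines. Summed markers of neurons, astrocytes, oligodendrocytes and microglia were above 0 in every library, and capillary endothelium is a small part of such a mixture. Of 22 further genes of endothelial identity, all 22 passed the filter. In such bulk RNA, fewer cells of a type and less RNA per cell cannot be told apart.

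The level of a gene is given throughout as scaled coverage, that is the deposited mean depth per base, divided by its sum over all reference genes of the library and multiplied by 1000000. It is a value per length, but so is the deposited FPKM, and their ratio differed between genes. In library 49, Slc2a1 had a coverage of 100.24 at an FPKM of 29.6, and Tjp1 had 57.0 at 11.2. Levels of different genes can therefore be compared only roughly. Summed reference coverage per library, in units of 1000000, was 1.67 to 2.82 for Control, 1.64 to 3.07 for Low and 1.77 to 2.67 for High. The tables hold no number of reads, and the counting error of a value is therefore unknown. The tables of Control and High also listed loci assembled from the reads, and those of Low listed 0 such loci. A difference between Low and either other group therefore cannot be told apart from this difference in how the tables were made. Library 56 (Control) was also unlike the rest of its group, with 159573 assembled loci. The other Control and High libraries had 46334 to 66427. By the median absolute log2 deviation from the group median over all genes tested, libraries 49 (Control) and 57 (Low) stood apart. They had 0.34 and 0.26, against 0.10 to 0.20 in the other 22. Spearman's rho with the group median set apart more libraries. It was 0.960 in 49 and 56 (Control) and 64 (Low), 0.961 in 63 (Low) and 0.968 in 57. The others had 0.977 to 0.993. Libraries 56 to 62, which are 1 Control and 6 Low libraries, carried 5449 to 8102 units of scaled coverage on minus-strand mitochondrial tRNA genes, against 84.9 to 155 in the others. No label names a batch that covers them. Positions are given as in the tables. Build mRatBN7.2 is named by the submitters' processing notes, but clone names and the end of the last gene on chromosome 1, at 282724300, do not look like that build, so the build of these positions is not settled.

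The promoters of 4 genes are shown because they represent the kinds of genes in the set, with 2 transporters (Slc2a1 and Slco1a4, the member called in Low against High), a junction protein (Ocln) and a receptor (Flt1). Each runs from 250 bases before to 50 bases after the start that RefSeq gives on build GRCr8, 5′ to 3′ on the strand of the gene. Capitals mark the GC box (GGGCGG) and the TATA box (TATAAA) on either strand. The windows are chr12:12333180-12333479 on the plus strand for Flt1, chr5:138002272-138002571 on the plus strand for Slc2a1, chr4:176495797-176496096 on the minus strand for Slco1a4 and chr2:33441149-33441448 on the minus strand for Ocln.
Flt1: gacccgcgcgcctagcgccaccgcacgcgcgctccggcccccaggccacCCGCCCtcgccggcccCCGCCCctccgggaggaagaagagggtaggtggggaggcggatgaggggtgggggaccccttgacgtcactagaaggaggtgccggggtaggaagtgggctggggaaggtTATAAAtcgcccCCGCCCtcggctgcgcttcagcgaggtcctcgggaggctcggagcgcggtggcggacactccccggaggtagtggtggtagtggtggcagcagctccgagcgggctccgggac
Slc2a1: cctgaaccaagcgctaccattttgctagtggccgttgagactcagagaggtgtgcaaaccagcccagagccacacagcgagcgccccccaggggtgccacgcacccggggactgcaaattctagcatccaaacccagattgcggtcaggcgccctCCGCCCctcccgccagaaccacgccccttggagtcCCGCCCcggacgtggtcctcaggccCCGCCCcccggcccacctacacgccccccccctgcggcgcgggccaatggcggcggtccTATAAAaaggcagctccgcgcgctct
Slco1a4: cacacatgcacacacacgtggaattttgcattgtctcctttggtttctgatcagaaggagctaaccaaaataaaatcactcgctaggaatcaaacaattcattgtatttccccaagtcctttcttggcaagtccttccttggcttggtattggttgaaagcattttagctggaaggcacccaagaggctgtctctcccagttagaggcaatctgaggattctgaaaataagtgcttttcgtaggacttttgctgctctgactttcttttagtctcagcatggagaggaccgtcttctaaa
Ocln: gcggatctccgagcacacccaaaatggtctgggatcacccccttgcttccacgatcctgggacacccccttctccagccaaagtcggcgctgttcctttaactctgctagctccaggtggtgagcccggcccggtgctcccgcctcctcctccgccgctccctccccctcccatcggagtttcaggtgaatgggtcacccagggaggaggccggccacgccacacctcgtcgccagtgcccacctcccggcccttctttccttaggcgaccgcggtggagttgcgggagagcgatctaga

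RefSeq windows of this length were at hand for 7 of the 10 genes. The GC box occurred 3 times each in the windows of Flt1 and Slc2a1, once each in those of Cldn5 and Abcb1a, and in none of those of Slco1a4, Ocln and Tjp1. It occurred in 34.9% of all 27457 promoter windows. The TATA box occurred once each in the windows of Flt1 and Slc2a1, and in 14.3% of all windows. It began at base 176 of the Flt1 window, before the RefSeq start. In the Slc2a1 window it began at base 275, after that start. The letters CCGGAA, an ETS core, occurred in 0 of the 7 windows and in 15.8% of all. CAGGAA, a second ETS form, occurred in 1 of the 7, that of Tjp1, and in 29% of all. ACAAAG, a SOX core, also occurred in that of Tjp1 alone and in 18.3% of all, as did CTTTGA, a TCF and LEF core, in 15.9% of all. No match overlapped another in these 7 windows. Base composition differed widely, since G and C made up 72.7% of the Flt1 window and 68.3% of the Slc2a1 window, against 43% for Slco1a4 and 33.7% for Tjp1, with a median of 52.3% over all windows.

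Levels in the Control group spanned about an order of magnitude. Slc2a1, which encodes the glucose carrier GLUT1, was the highest with a scaled coverage of 64.8 ± 11.99 (SD, n = 8). Tjp1, the scaffold protein ZO-1 under the tight junction, followed with 47.1 ± 7.63. Slco1a4, an organic anion transporter of the capillary wall, had 40.6 ± 7.05. Slc2a1 exceeded Tjp1 in each of the 8 Control libraries, and Tjp1 exceeded Slco1a4 in 6 of the 8, with ranges that overlapped.

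Lower levels were measured for the other 4. Flt1, the VEGF receptor VEGFR1, had 23.3 ± 4.44, and its range did not overlap that of Slco1a4. Mfsd2a, the carrier of lysophospholipids with docosahexaenoic acid into the brain, had 16.5 ± 3.14 and lay below Flt1 in 7 of the 8 libraries. Cdh5, the VE-cadherin of endothelial adherens junctions, had 10.4 ± 2.85, and Ocln, the tight junction protein occludin, had 6.68 ± 1.19. Both of these last steps were seen in all 8 libraries although the ranges overlapped. Slc2a1 is also made by astrocytes and Tjp1 by many cell types with junctions, so these levels do not belong to endothelium alone.

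**Figure D1:**
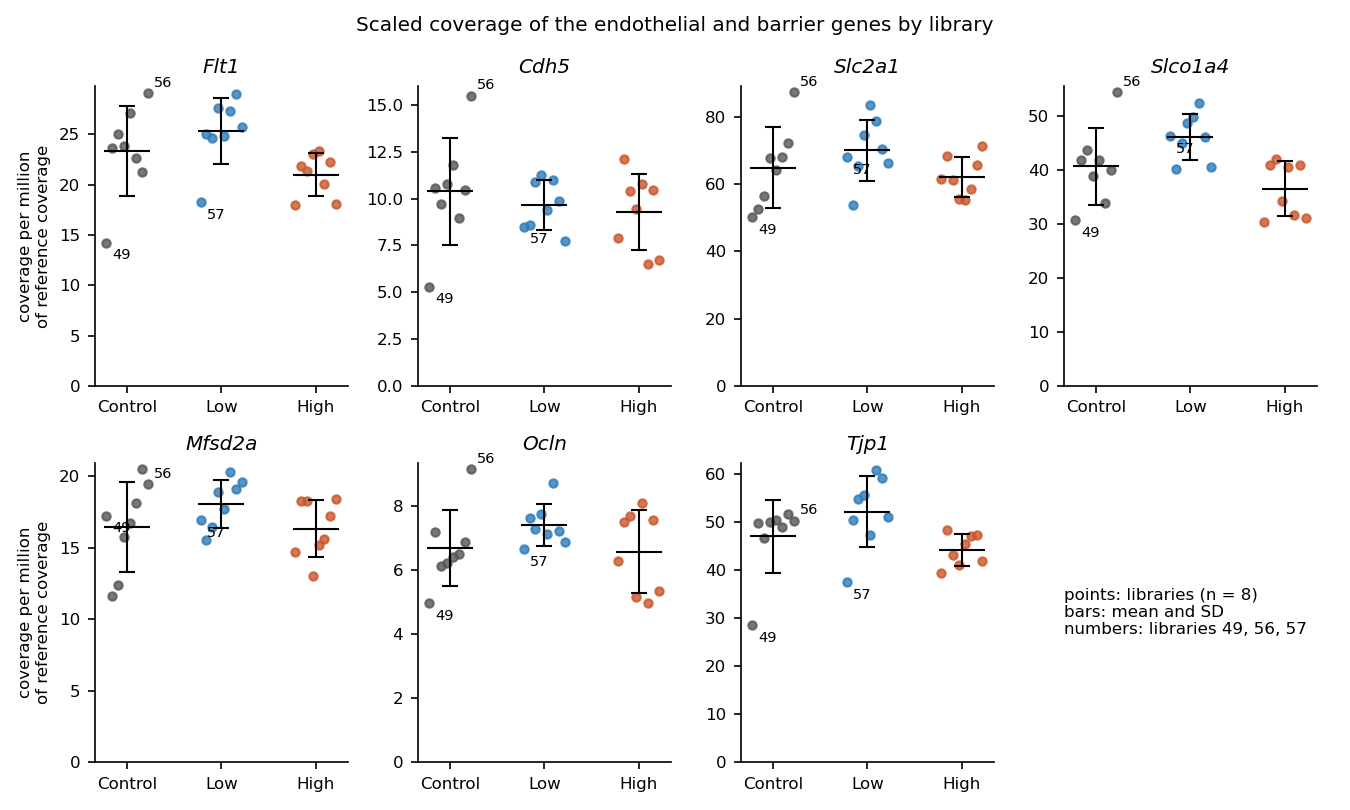
Scaled coverage (vertical axis, per 1000000 of reference coverage) of 7 endothelial and barrier genes in the Control, Low and High groups. Points are libraries, bars the mean and SD of 8. Library 49 was the lowest Control library in 6 of the 7 genes and library 56 the highest in 5, and every gene's groups overlap.

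No member passed the test of an exposed group against Control. In Low against Control, 0 of the 7 genes passed an adjusted p under 0.05 (limma, Benjamini-Hochberg over all genes tested), beside 6.11% of all genes tested, 1.23% higher and 4.88% lower in Low. In High against Control, 0 of the 7 passed, beside 0% of all genes. At an unadjusted p under 0.05 the count was likewise 0 of 7 in both comparisons, beside 2885 of the 15644 genes in Low against Control and 330 in High against Control. The exact Wilcoxon rank-sum test also called 0 members in both. In Low against High, 1 of the 7 passed, Slco1a4, which was higher in Low, beside 11.7% of all genes, 5.3% called in that direction and 6.39% in the other. With the FPKM column as deposited, 7 of 7 members and 12393 of all genes were called in Low against Control, at a median of 0.53 over all genes, and with FPKM divided by its sum over reference genes 0 of 7 were called. The comparisons share groups, so their values for a gene are not independent of each other.

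The median log2 difference of the 7 genes was 0.14 in Low against Control, with 6 above 0 and 1 below, where the median of all genes was 0.06. In High against Control it was -0.07, with 1 above 0 and 6 below, where all genes had -0.03. In Low against High it was 0.17, with 7 above 0, against 0.09 for all genes. These signs depended on the scaling, since coverage without scaling turned 6 of the 7 in High against Control and 4 of the 7 in Low against High, and median-of-ratios scaling turned Ocln in the former and Cdh5 in the latter. The median of all genes without scaling was 0.14 in High against Control and -0.11 in Low against High.

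Among the transporters, Slco1a4 (ENSRNOG00000047493) is listed on the minus strand of chromosome 4 from 175969549 to 176026163. Its scaled coverage lay at 30.6 to 54.3 across Control libraries (median 40.9), at 40.05 to 52.3 across Low ones (median 46.1) and at 30.4 to 42.0 across High ones (median 37.4). Of the 8 Low libraries, 6 lay above every High library and all 8 above the High median, while Low and Control overlapped widely. The highest Control library, 56, exceeded every Low library. The log2 difference of Low minus High was 0.33 (SE 0.10, 95% interval 0.14 to 0.53, limma adjusted p = 0.0235), a ratio of 1.26. Against Control it was 0.19 in Low (interval -0.01 to 0.39, adjusted p = 0.29) and -0.14 in High (interval -0.34 to 0.05, adjusted p = 0.999). The exact two-sided permutation test of Low against High gave an unadjusted p = 0.00233 (n = 8 each).

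The call of Slco1a4 depended on single libraries and on the scaling. Its adjusted p in Low against High was 0.0569 without library 62, 0.0542 without library 65 and 0.0514 without library 72. It was 0.0988 with median-of-ratios scaling, at a log2 difference of 0.24, and 0.60 with libraries 56 to 62 as a covariate, at a log2 difference of 0.15. Those libraries are 6 Low, 1 Control and 0 High, so the covariate largely overlaps with the groups. A call lost with it does not show that the groups are alike. Outside libraries 56 to 62, the 2 remaining Low libraries had 46.1 and 40.5, a log2 difference of 0.25 from High (exact permutation p = 0.20). Near copies of the gene were at or near 0, with a mean scaled coverage of 0 for Slco1a1, 0.000825 for Slco1a6 and 0.0413 for Slco1a2.

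Slc2a1 (ENSRNOG00000007284) is listed on the plus strand of chromosome 5 from 138154673 to 138182897. It lay at 50.2 to 87.2 across Control libraries (median 65.9), at 53.7 to 83.3 across Low ones (median 69.1) and at 55.1 to 71.4 across High ones (median 61.2). The ranges of Low and High both lay within that of Control, and that of High was the narrowest. The log2 difference was 0.12 in Low (95% interval -0.08 to 0.32) and -0.05 in High (interval -0.25 to 0.15) against Control, and Low minus High was 0.17 (limma adjusted p = 0.26).

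Mfsd2a (ENSRNOG00000014008) is listed on the minus strand of chromosome 5 from 140642885 to 140657745. It lay at 11.6 to 20.5 across Control libraries (median 17.0), at 15.6 to 20.3 across Low ones (median 18.3) and at 13.0 to 18.4 across High ones (median 16.4). The lowest 2 of its Control libraries lay below all Low and High libraries. Its log2 difference was 0.14 in Low (interval -0.06 to 0.35) and 0.00 in High (interval -0.20 to 0.21), and Low minus High was 0.14 (limma adjusted p = 0.35).

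Among the junction genes, Cdh5 (ENSRNOG00000013324) is listed on the minus strand of chromosome 19 from 1023683 to 1074365. It lay at 5.30 to 15.5 across Control libraries (median 10.5), at 7.74 to 11.3 across Low ones (median 9.63) and at 6.49 to 12.1 across High ones (median 9.93). Both ends of the whole range were Control libraries, 49 at the bottom and 56 at the top, and the coefficient of variation was 27.4% in Control against 13.6% in Low and 21.95% in High. It was the 1 member with a negative difference in Low against Control, -0.06 (interval -0.36 to 0.24), and had -0.13 in High (interval -0.43 to 0.17), while Low minus High was 0.07 (limma adjusted p = 0.79).

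Ocln (ENSRNOG00000018297) is listed on the minus strand of chromosome 2 from 30527715 to 30577218. It lay at 4.97 to 9.15 across Control libraries (median 6.46), at 6.64 to 8.73 across Low ones (median 7.25) and at 4.96 to 8.10 across High ones (median 6.88). All 8 Low libraries lay above the Control median, yet library 56 of Control exceeded every one of them. Its log2 difference was 0.14 in Low (interval -0.07 to 0.35) and -0.02 in High (interval -0.24 to 0.19), and Low minus High was 0.17 (limma adjusted p = 0.29).

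Tjp1 (ENSRNOG00000011077) is listed on the minus strand of chromosome 1 from 126146489 to 126227469. It lay at 28.5 to 51.7 across Control libraries (median 50.0), at 37.6 to 60.8 across Low ones (median 52.9) and at 39.4 to 48.3 across High ones (median 44.4). Library 49 stood alone, since the other 7 Control libraries lay within 46.6 to 51.7, and all 8 High libraries lay below the Control median. The log2 difference was 0.15 in Low (interval -0.06 to 0.36) and -0.07 in High (interval -0.28 to 0.14) against Control. Low minus High was 0.22 (SE 0.10, interval 0.01 to 0.43, limma adjusted p = 0.16).

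The receptor Flt1 (ENSRNOG00000000940) is listed on the plus strand of chromosome 12 from 9034308 to 9205905. It lay at 14.2 to 29.0 across Control libraries (median 23.8), at 18.2 to 29.0 across Low ones (median 25.3) and at 18.0 to 23.3 across High ones (median 21.6). Of the 8 Low libraries, 7 lay above every High library, and the exception was 57. All 8 High libraries lay below the Control median. The log2 difference was 0.12 in Low (interval -0.10 to 0.35) and -0.13 in High (interval -0.35 to 0.09) against Control. Low minus High was 0.25 (SE 0.11, interval 0.03 to 0.47, limma adjusted p = 0.12).

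Flt1 and Tjp1 passed in Low against High once library 49 or library 57 was left out. Without library 49, the adjusted p was 0.0369 for Flt1 and 0.0377 for Tjp1. That library is a Control, so the log2 differences stayed at 0.25 and 0.22. It enters this comparison only through the spread, which the fit shares over the 3 groups. Without library 57 the adjusted p was 0.0389 and 0.0453. Without both it was 0.00215 for Flt1 and 0.000779 for Tjp1, and 3 of the 7 members were called, with 4507 of all genes. Outside libraries 56 to 62, the 2 remaining Low libraries differed from High by 0.37 for Flt1 and 0.31 for Tjp1. The exact permutation p was 0.022 for each, the smallest that 2 against 8 can give. For the other members the difference was 0.25 (Slco1a4), 0.24 (Mfsd2a), 0.14 (Slc2a1), 0.10 (Ocln) and -0.05 (Cdh5). Their exact permutation p ran from 0.089 to 0.80, and none of these p-values was adjusted. Of 39 alternatives in Low against High, 32 left Flt1 uncalled, 6 called it and 1 turned its sign, and Tjp1 had the same counts. For both genes the 32 included 22 of the 24 fits that left out 1 library. They also included the 3 settings given next. Median-of-ratios scaling gave 0.16 for Flt1 (adjusted p = 0.31) and 0.13 for Tjp1 (0.30), unscaled coverage gave 0.043 (0.97) and 0.0078 (0.99), and libraries 56 to 62 as a covariate gave 0.22 (0.52) and 0.24 (0.46). In High against Control the smallest adjusted p of any of the 7 genes without both was 0.0897, that of Flt1, where 390 of all genes were called.

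**Figure D2:**
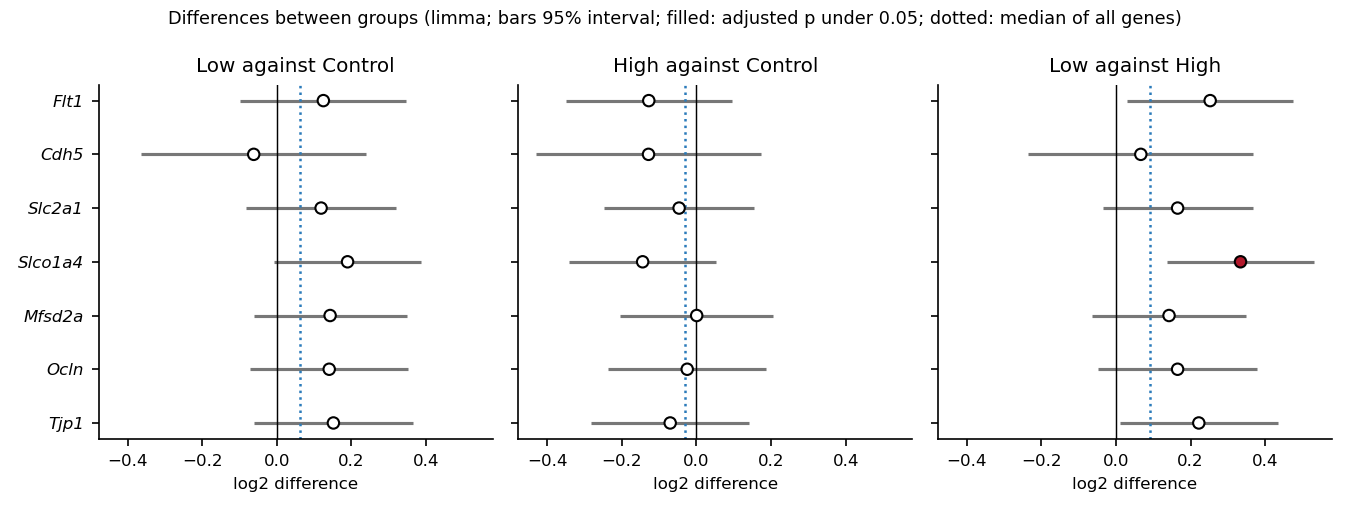
Log2 differences of 7 genes (horizontal axis) in the 3 comparisons, with 95% intervals from limma. Filled points have an adjusted p under 0.05 and dotted lines mark the median of all genes tested. Slco1a4 in Low against High, at 0.33, is the 1 filled point, and the intervals of all 7 genes against Control include 0.

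Cldn5, which encodes claudin 5, the main claudin of brain capillaries and a gene without introns, was listed near 0. Its row (ENSRNOG00000045811) lies on the minus strand of chromosome 11 from 86356294 to 86357718. It was at 0 in 19 of the 24 libraries, 8 of them Low, and its highest deposited coverage was 0.316. No fold was computed for it. The row lies wholly within that of Cdc45, a helicase subunit of DNA replication, which is on the plus strand from 86329012 to 86358453 and had a mean scaled coverage of 23.6.

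Coverage at this place was listed on the other strand in Control and High. All 16 of those tables held an assembled locus on the plus strand that overlapped the Cldn5 row. Its scaled coverage ran from 28.1 to 110 in Control (median 63.1) and from 29.6 to 74.6 in High (median 64.2). In 11 tables it spanned 1359 to 2159 bases and had 59.1 to 110. In the other 5 it spanned 8234 to 10486 bases and had 28.1 to 38.4, so values from loci of unlike extent were not compared between the groups. Both classes of locus occurred in both groups.

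Cdc45 itself ran from 19.7 to 29.9 over the 24 libraries. The 10 genes of its helicase complex, Mcm2 to Mcm7 and Gins1 to Gins4, had mean levels from 0.79 (Mcm5) to 15.8 (Gins2), with a median of 3.39, and all 10 lay below Cdc45. Its log2 difference was 0.12 in Low (interval -0.04 to 0.28) and 0.02 in High (interval -0.14 to 0.18) against Control. Whether coverage of the Cdc45 row comes from Cldn5 transcripts was not tested, and neither row is used here as a measure of claudin 5.

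**Figure D3:**
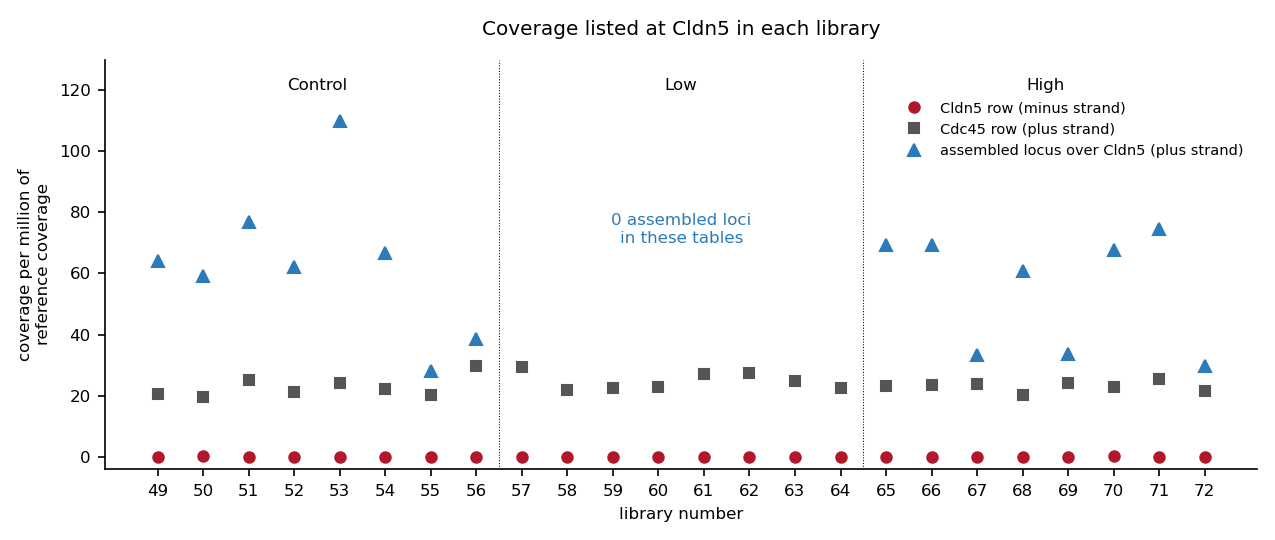
Scaled coverage (vertical axis) in each of the 24 libraries (horizontal axis) of the Cldn5 row, of the Cdc45 row that contains it on the other strand, and of the assembled plus-strand locus with the highest coverage over Cldn5. Cldn5 is at or near 0 in all libraries, Cdc45 lies between 19.7 and 29.9, and the assembled locus lies between 28.1 and 110 in the 16 Control and High libraries.

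Assembled loci also lay where Pecam1 and Abcb1a would be sought. Pecam1 encodes CD31, an adhesion molecule of endothelial junctions, and RefSeq places it between Tex2 and Milr1. In that gap of the tables, after 94807499 and before 94944436 on chromosome 10, 15 of the 16 tables listed a minus-strand locus of 35249 to 35497 bases that began between 94850861 and 94850992. Its scaled coverage ran from 2.36 (library 49) to 14.3 in 7 Control libraries (median 12.8) and from 3.88 (library 69) to 15.98 in 8 High libraries (median 11.9). These loci carry no gene name, and what they transcribe was not tested.

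Abcb1a encodes P-glycoprotein, the main efflux pump of the barrier, and RefSeq orders Abcb4, Abcb1b, Abcb1a and Rundc3b along chromosome 4. The Abcb4 row of the tables, on the minus strand from 22133521 to 22425515, fills nearly the whole stretch before Rundc3b, which starts at 22445414, and had a mean scaled coverage of 2.66. At its far end, 15 of the 16 tables listed a minus-strand locus that ended at 22425381, with a scaled coverage of 11.9 to 26.0 in 8 Control libraries (median 19.2) and 17.0 to 24.5 in 7 High libraries (median 19.1). Neither gene's level can be read from these rows, and Low tables list 0 such loci.

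At the 7 genes tested, assembled loci on the same strand spanned the whole reference row in each of the 16 tables, except at Cdh5, where 12 tables held one. Their coverage equalled that of the reference row to within 0.001 in 15 of 16 tables for Flt1 and for Mfsd2a. The equality held in 11 tables for Cdh5, in 2 for Ocln and in 1 for Slco1a4. For Slc2a1 the coverage was 1.38 to 1.53 times that of the reference row in the 6 tables with the same span. For Slco1a4 it was 0.45 to 1 times in 16. The rows thus list the same stretches more than once, and the levels given here use the reference rows alone. Whether reads placed in the loci are missing from the reference rows was not tested. Minus-strand loci inside Flt1, of up to 16.1 units of scaled coverage, were listed in 11 of the 16 tables, but not all at the same place. The highest in library 56, which had 16.1 and was 1 of 15 there, ran from 9124934 to 9129269. The highest in library 71 ran from 9113763 to 9114003. In the others the highest lay between 9163960 and 9164225.

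Between libraries of the same group, some of the genes varied together. After removal of group means, the highest correlation was that of Cdh5 with Slco1a4 (Pearson r = 0.87, Spearman rho = 0.80, 24 libraries), followed by Flt1 with Tjp1 (0.84 and 0.57) and Cdh5 with Ocln (0.82 and 0.81). Slc2a1 went with Mfsd2a (0.67 and 0.72). Flt1 and Mfsd2a gave r = -0.01. These are descriptions without a test, since the libraries share depth and composition.

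The correlations were mostly lower without libraries 49, 56 and 57. Over the 21 pairs of genes the median r was 0.49 in all 24 libraries and 0.33 in the 21 libraries without them, a choice made after seeing the data. Cdh5 with Slco1a4 kept 0.81, Cdh5 with Ocln 0.72 and Slc2a1 with Mfsd2a 0.76. Flt1 with Tjp1 dropped to 0.47, and Slc2a1 with Cdh5 went from 0.48 to 0.11. Summed over the listed members, library 49 had 151, the lowest value of its group, and library 56 had 265, the highest. In Control, the summed markers of astrocytes, of pericytes with smooth muscle and of meninges were also lowest in library 49 and highest in library 56, those of microglia and red blood cells were highest in library 56, and those of choroid plexus were highest in library 49. Their part in the pattern was not tested.

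**Figure D4:**
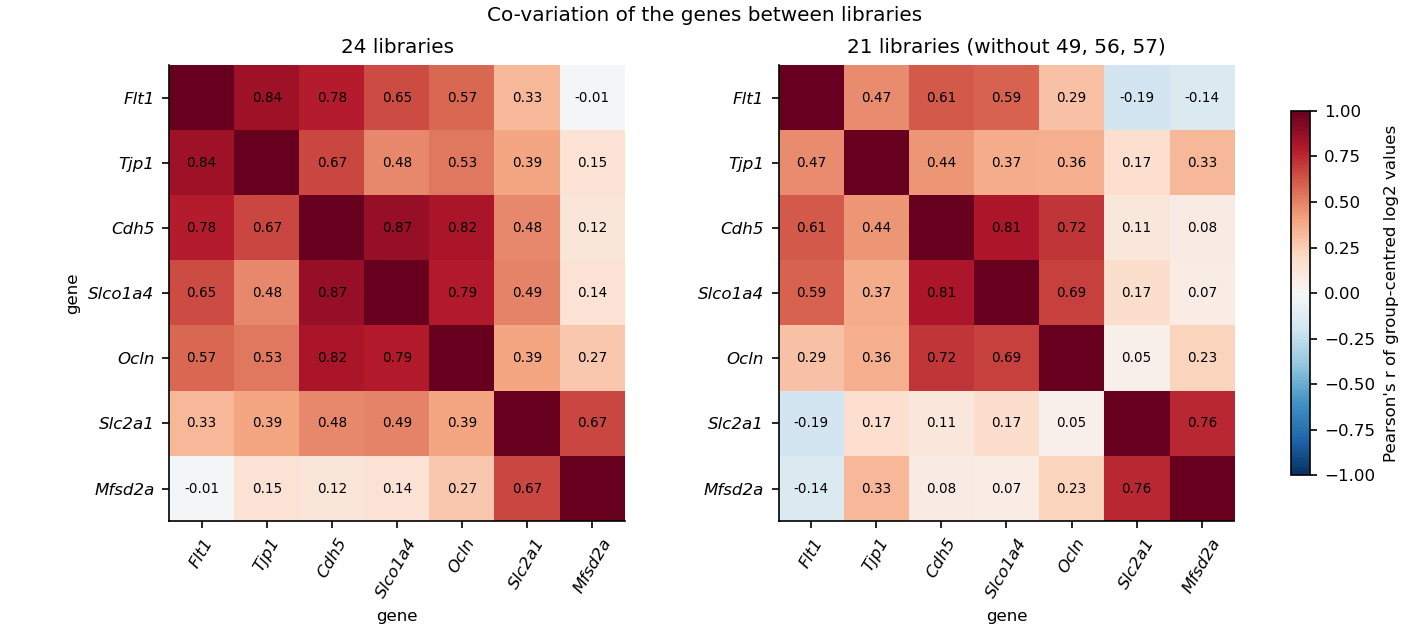
Pearson's r (colour and printed value) between 7 genes over group-centred log2 values, left in all 24 libraries and right in the 21 without libraries 49, 56 and 57. Cdh5, Slco1a4 and Ocln form a block with r of 0.69 or more in both panels, and Slc2a1 pairs with Mfsd2a.

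The 8 genes most like the mean of the members were vascular in part by their known roles. By Pearson's r with the mean of the 7 standardized genes over 24 libraries, they were Jam2 (r = 0.94), a junctional adhesion molecule, Col4a1 (0.92), Lamb2 (0.91) and Lamc3 (0.90), which are chains of basement membrane collagen and laminin, Epas1 (0.91), the hypoxia factor HIF-2 alpha, Abcc4 (0.90), an efflux pump, Ephb4 (0.90), a receptor of venous endothelium, and Ahnak (0.90), a large scaffold protein. Their Spearman's rho ran from 0.82 for Lamb2 to 0.94 for Jam2. Without libraries 49, 56 and 57 the r of Jam2 was 0.88 and that of Abcc4 0.73, the lowest of the 8. Over the 15637 other genes tested the median r was 0.32 and the 95th percentile 0.72. None of the 8 passed the test in any comparison, with the smallest limma adjusted p being 0.20 (Jam2, Low against High).

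Genes that work with the members were read from 7 lists of 121 genes, of which 119 were found and 110 tested. In Low against Control 0 of the 110 passed and in High against Control 0 passed (limma, adjusted p under 0.05), beside 956 and 0 of the 15644 genes tested. At an unadjusted p under 0.05 there were 9 and 2 of the 110, beside 2885 and 330 of all genes. By the exact Wilcoxon test the counts were also 0 and 0. In Low against High 4 passed, 3 higher and 1 lower in Low, beside 11.7% of all genes. The median log2 difference of the 110 was 0.04, -0.08 and 0.12 in the 3 comparisons.

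Endothelial identity and surface genes had 22 members tested, led in level by S1pr1 and Cd34. S1pr1, a sphingosine-1-phosphate receptor, had 107 ± 12.7 in Control, 115 ± 5.35 in Low and 102 ± 12.6 in High. Cd34, a surface sialomucin, had 40.4 ± 10.2, 56.4 ± 14.7 and 42.3 ± 22.8, with a High range of 10.9 to 68.6. Junction partners had 17 tested and 0 called in any comparison. Their highest levels were those of Ctnnb1, the catenin that binds VE-cadherin, with 187 ± 38.4 in Control, and Ctnna1, its alpha catenin, with 57.8 ± 5.61.

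Barrier transporters had 20 tested. Slc3a2, the heavy chain of amino acid carriers, had 107 ± 10.6 in Control, 114 ± 9.07 in Low and 104 ± 4.25 in High. Lrp1, a receptor for lipoproteins that many brain cells make, had 95.2 ± 20.8, 102 ± 20.1 and 85.5 ± 8.95. Wnt signalling, which induces the barrier, had 18 tested and 0 called, with Tspan12 (28.4 ± 3.53 in Control) and Reck (17.6 ± 3.25), both partners of the receptor, highest. VEGF and angiopoietin genes had 15 tested and 0 called, with the ligand Vegfa at 61.6 ± 6.61 in Control, 64.3 ± 4.50 in Low and 56.8 ± 5.06 in High, and Efnb2, a ligand of Ephb4, at 36.0 ± 5.51 in Control. Caveolae and vesicle transport had 9 tested, led by Mfge8, a milk fat globule protein, with 128 ± 16.6 in Control, and Cavin1, a coat protein of caveolae, with 37.6 ± 7.03. Endothelial activation had 9 tested and 0 called, with Plat, the tissue plasminogen activator, at 39.9 ± 5.42 in Control and Nfkbia, an inhibitor of NF-kappa B, at 27.7 ± 10.4. The log2 differences of the 9 from Control ran from -0.23 to 0.19 in Low and from -0.25 to 0.07 in High.

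The 4 genes that passed in Low against High fall outside the rule for named genes and were named after their values were seen. Tfrc, the transferrin receptor that carries iron into the brain, ran from 49.1 to 69.4 in Low (median 63.2) and from 38.9 to 52.4 in High (median 46.4), with a log2 difference of 0.39 (SE 0.08, limma adjusted p = 0.00315). Slco1c1, the thyroxine carrier of the barrier, ran from 53.4 to 73.2 in Low (median 61.9) and from 44.9 to 54.4 in High (median 52.0), with a log2 difference of 0.30 (SE 0.07, limma adjusted p = 0.00963). In both genes the ranges of Low and High overlapped, and the Control mean lay between their means with 51.7 ± 7.61 and 56.2 ± 7.36. Both calls were kept in all 24 fits that left out 1 library. Over 37 alternatives the call was lost in 2 for Tfrc and in 3 for Slco1c1.

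Cavin3, a coat protein of caveolae, had 32.9 ± 4.54 in Low and 26.8 ± 4.14 in High, with a log2 difference of 0.29 (SE 0.09, limma adjusted p = 0.0429). Its call was lost in 12 of the 24 fits that left out 1 library. Ramp2, a partner of the adrenomedullin receptor, was lower in Low, with 15.99 ± 1.79 against 19.0 ± 1.37 in High, a log2 difference of -0.24 (SE 0.07, limma adjusted p = 0.0239), and its call was lost without library 59 or library 65, with an adjusted p of up to 0.0561. With libraries 56 to 62 as a covariate, which largely overlaps with the groups, 0 of the 110 list genes passed in Low against High.

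**Figure D5:**
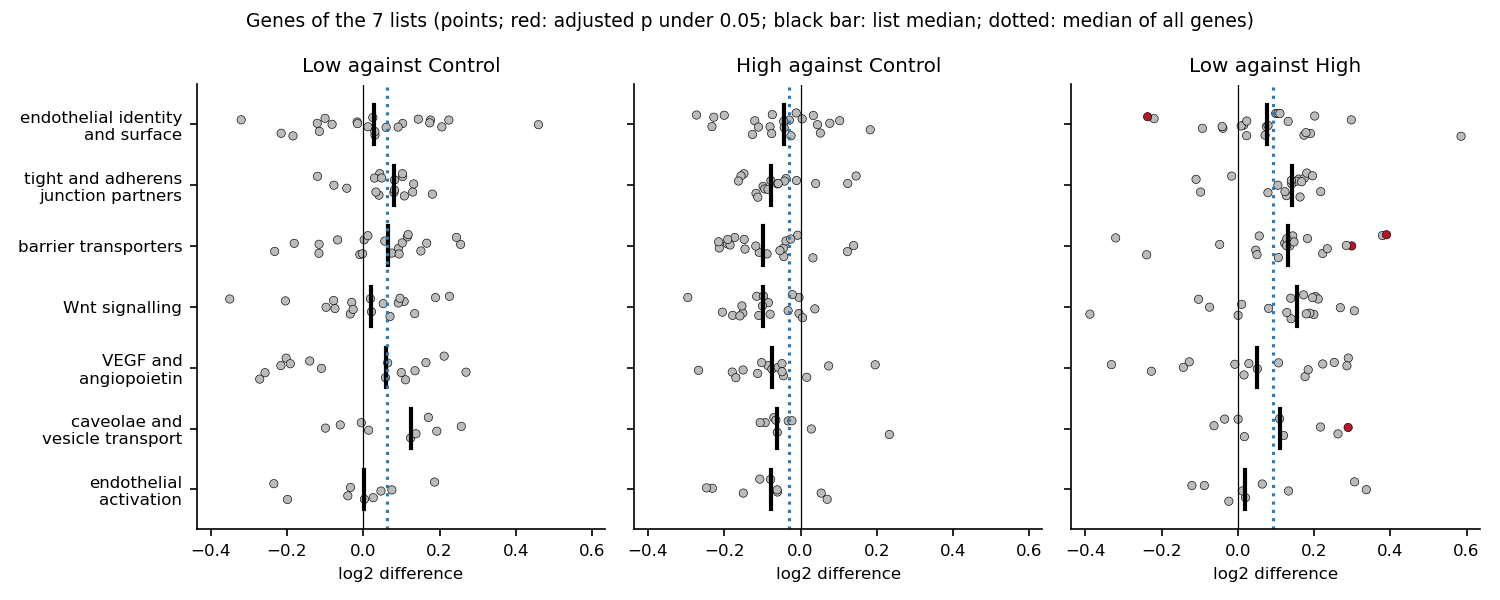
Log2 differences (horizontal axis) of the genes of 7 lists in the 3 comparisons. Points are genes, black bars list medians and dotted lines the median of all genes tested. Red points have an adjusted p under 0.05, and the 4 of them all lie in Low against High.

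Without libraries 49 and 57, which was tried after seeing the data, 5 list genes, likewise named after their values were seen, passed in High against Control, all lower in High, beside 390 of all genes, and 0 of these passed with all 24 libraries. These were Ctnnd1, the p120 catenin that stabilizes VE-cadherin, with a log2 difference of -0.27 (limma adjusted p = 0.0402), Insr, the insulin receptor, with -0.36 (0.0127), Lrp1 with -0.26 (0.0492), Lrp6, a Wnt co-receptor, with -0.37 (0.0229), and Ptprb, a phosphatase that acts on VE-cadherin, with -0.50 (0.0341). In the same fit 26 of 110 passed in Low against High, beside 4507 of all genes, and 0 in Low against Control, beside 672 of all genes.

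Markers of other cell types were tested in the same fit. Of 12 genes of pericytes and vascular smooth muscle, 1 passed, Pdgfrb, which was lower in Low than in Control and than in High. Of all genes tested, 6.11% passed in Low against Control (4.88% lower in Low) and 11.7% in Low against High (6.39% lower in Low). Of the lists for astrocytes (8 tested), microglia (7), oligodendrocytes (7), neurons (8), meninges (7), choroid plexus (3) and red blood cells (6), 0 genes passed in any comparison. The summed level of the pericyte list lay at 171 to 325 across Control libraries (median 219), at 166 to 243 across Low ones (median 207) and at 129 to 342 across High ones (median 236). That of the meninges list lay at 88.6 to 216 across Control libraries (median 129), at 52.0 to 160 across Low ones (median 75.7) and at 45.8 to 164 across High ones (median 136). The listed members themselves summed to 151 to 265 in Control (median 210), 201 to 259 across Low libraries (median 232) and 178 to 217 across High ones (median 196). Low medians were thus the highest of the 3 groups for the members, as they were for astrocytes, microglia, oligodendrocytes and neurons. They were the lowest for pericytes, meninges and red blood cells, and all ranges overlapped. Per gene, the 12 pericyte genes had a median log2 difference of 0.05 in Low against High, opposite in sign to their sums, and the meninges genes had -0.28. The part of other cell types in the differences was not tested.

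Sums of the remaining lists overlapped between the groups as well. Astrocyte markers summed to 1396 to 2441 in Control (median 1988), 1547 to 2221 across Low libraries (median 2007) and 1440 to 2054 across High ones (median 1727). Medians in Control, Low and High were 215, 232 and 214 for microglia, 5368, 5896 and 5184 for oligodendrocytes, 2556, 2641 and 2457 for neurons, 9.85, 12.9 and 13.97 for choroid plexus and 1038, 898 and 976 for red blood cells.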

How the data were processed

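For each of 24 rats (8 each in Control, Low and High, by sample label) the authors deposited 1 table of genes. FastQC, Trimmomatic, TopHat2, StringTie and build mRatBN7.2 are named in the submitters' processing notes, with no versions. The deposited coverage signal is the mean depth per base. The deposited FPKM and TPM columns served as alternatives, and the deposited TPM column of Control and High was treated as a score, since it sums to more than 1000000. No file gives reads per gene, so no interval from depth was possible. The labels say no more of how the samples of a group were obtained, so p-values measure the spread between these samples.

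Entries of a gene were summed, coverage was divided by its sum over the 32883 reference genes and multiplied by 1000000, and genes with a mean of at least 1 were kept. Limma 3.58.1 (trend, robust, in R 4.3.3) was fitted on log2(value + 1) to all 24 libraries, two-sided, with Benjamini-Hochberg adjustment over 15644 genes and a threshold of 0.05. Fold changes are on that scale, which understates changes of low genes. The fit and the exact tests were tested on simulated data. Of all libraries 0 were identical.

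The members, the lists and the split of libraries 56 to 62 were chosen with earlier results of these data known. Named genes were the members, of each list the genes that passed against Control or, where none did, the 2 of highest mean level, and the 8 genes with the highest r with the mean of the members. Alternatives were a pseudocount of 0.1, a minimum mean of 5 or no filter, unscaled coverage, median-of-ratios scaling, a sum without mitochondrial genes, the FPKM and TPM columns, only the groups compared, the split as a covariate, exact Wilcoxon and permutation tests, added assembled loci and each library left out. FPKM divided by its reference sum and leaving out libraries 49 and 57, or 49, 56 and 57, were added after seeing the data. Promoters are from RefSeq (GRCr8). Other tools were matplotlib 3.10.9, scipy 1.17.1, pandas 2.3.3 and numpy 2.4.6 under Python 3.11.15.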

Additional observations from a re-analysis of the deposited data

Results flagged for a closer look

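The value of Flt1 in library 57 (Low) was 18.2, far below the other 7 Low libraries, the next of which had 24.6. The value of Tjp1 in library 49 (Control) was 28.5, far below the other 7, the next of which had 46.6. Both gaps passed Dixon's test at its 95% critical value for 8 values. These were 2 of 42 tests over 21 groups of values, and chance marks about 1 in 20 groups. Both libraries stood apart over all genes tested by their deviation from the group median.

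The log2 difference of Slco1a4 between Low and High was 0.33, while neither group passed against Control, and the difference between the 2 exposed groups was tested directly (limma adjusted p = 0.0235). Coverage on the plus strand over Cldn5, which enters no comparison, had a median of 63.1 in Control and of 64.2 in High, beside a Cldn5 row at or near 0.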

How the results depend on the processing

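Over 33 log2 differences, 1129 of 1263 alternatives kept direction and side of the threshold, 37 lost and 37 gained the call, and 60 turned the sign. For each difference 24 of the alternatives left out 1 library, and such fits share most of their data with the main fit. The lost calls were all in Low against High, 18 of Cavin3, 7 of Slco1a4, 7 of Ramp2, 3 of Slco1c1 and 2 of Tfrc. The causes were not tested unless stated.
In Low against Control, 956 genes were called (192 higher, 764 lower). The count was 556 with a minimum mean of 5, 613 without scaling, 1759 without mitochondrial genes in the sum (858 higher, 901 lower), 12393 with FPKM (11948 higher, 445 lower), 3952 with TPM (3178 higher, 774 lower), 361 with libraries 56 to 62 as a covariate (14 higher), 1847 with FPKM divided by its reference sum (955 higher, 892 lower), 566 with only the 2 groups compared, 372 by the exact Wilcoxon test and 675 to 1229 with 1 library left out. List genes called were 1 with median-of-ratios scaling, 1 without mitochondrial genes, 86 with FPKM, 17 with TPM, 3 with FPKM divided by its reference sum and 0 to 1 with 1 library left out. Members called were 7 with FPKM and 2 with TPM. The median of all genes was 0.53 with FPKM and 0.17 with TPM, against 0.06.
In Low against High, 1828 genes were called (829 higher, 999 lower). The count was 1192 with a minimum mean of 5, 1129 without scaling (77 higher, 1052 lower), 12410 with FPKM (11909 higher, 501 lower), 3927 with TPM (2997 higher, 930 lower), 354 with the covariate (31 higher, 323 lower), 4507 without libraries 49 and 57 together (3342 higher, 1165 lower), 1147 by Wilcoxon and 1272 to 2677 with 1 library left out. Median-of-ratios scaling gave 370 higher and 1286 lower, the sum without mitochondrial genes 1550 and 1169, and FPKM divided by its reference sum 1551 and 1080. List genes called were 1 without scaling, 7 without mitochondrial genes, 88 with FPKM, 18 with TPM, 0 with the covariate, 26 without libraries 49 and 57, 2 by Wilcoxon and 2 to 9 with 1 library left out. Members called were 0 without scaling, with median-of-ratios scaling, with the covariate and by Wilcoxon, 7 with FPKM, 4 with TPM, 3 without libraries 49 and 57, and 0 to 3 with 1 library left out. In High against Control, 390 genes and 5 list genes were called without libraries 49 and 57.
With FPKM, Low against Control gave 0.58 for Flt1, 0.36 for Cdh5, 0.71 for Slco1a4, 0.63 for Slc2a1, 0.58 for Mfsd2a, 0.58 for Ocln, 0.68 for Tjp1 and 0.42 for Ramp2. Low against High gave 0.65 for Flt1, 0.43 for Cdh5, 0.63 for Slc2a1, 0.54 for Mfsd2a, 0.56 for Ocln, 0.74 for Tjp1 and 0.33 for Ramp2. High against Control gave 0.020 for Ocln and 0.014 for Cavin3. With TPM, Low against Control gave 0.028 for Cdh5, 0.33 for Slco1a4, 0.31 for Ocln and 0.038 for Ramp2, Low against High gave 0.29 for Flt1, 0.28 for Ocln and 0.35 for Tjp1, and High against Control gave 0.022 for Ocln and 0.015 for Cavin3.
Assembled loci list stretches of the reference rows again and are not listed for Low. Adding them gave in Low against Control -0.83 for Flt1, -0.91 for Cdh5, -0.77 for Slco1a4, -0.86 for Slc2a1, -0.81 for Mfsd2a, -0.82 for Ocln and -0.59 for Tjp1. In Low against High it gave -0.71, -0.78, -0.50, -0.78, -0.79, -0.75 and -0.48 in the same order, and in High against Control -0.020 for Mfsd2a. This alternative lowers Low by its construction.
Without scaling, High against Control gave 0.048 for Flt1, 0.039 for Cdh5, 0.035 for Slco1a4, 0.13 for Slc2a1, 0.14 for Ocln, 0.11 for Tjp1, 0.033 for Slco1c1, 0.035 for Tfrc and 0.14 for Cavin3, and Low against High gave -0.13 for Cdh5, 0.12 for Slco1a4, -0.050 for Slc2a1, -0.065 for Mfsd2a and -0.025 for Ocln. With the covariate, Low against Control gave -0.012 for Slc2a1 and -0.00086 for Ocln, Low against High -0.19 for Cdh5, 0.15 for Slco1a4 and -0.0043 for Ocln, and High against Control 0.0034 for Ocln. With median-of-ratios scaling, High against Control gave 0.0080 for Ocln and 0.0034 for Cavin3, and Low against High -0.021 for Cdh5 and 0.24 for Slco1a4. By Wilcoxon, Slco1a4 at 0.33 lost its call (adjusted p = 0.0716). By the exact permutation test, unadjusted, Flt1 at 0.25 and Tjp1 at 0.22 passed in Low against High. Without libraries 49 and 57 these were 0.32 and 0.29, and Cavin3 in High against Control was 0.00047. The median r between members was 0.33 without libraries 49, 56 and 57.
With 1 library left out, High against Control ran from -0.089 to 0.0010 for Cavin3, from -0.063 to 0.047 for Mfsd2a, from -0.075 to 0.035 for Ocln and from -0.096 to 0.017 for Slc2a1, Low against Control from -0.18 to 0.021 for Cdh5, and Low against High from 0.22 to 0.32 for Flt1, from 0.30 to 0.36 for Slco1a4 and from 0.19 to 0.29 for Tjp1.
No paired analysis was possible because the groups share no library numbers. Depth cannot be weighed without read counts, and values near 0 such as those of Cldn5 support no fold.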
